A study of Mus musculus with 6 samples.

Results

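Cells of CT26 tumours that bind the T1 aptamer were compared across the Ly6G gate, Ly6G-low against Ly6G-high, in 4 of the 6 RNA sequencing libraries of the study. The members were fixed by the labels: the 2 libraries of Ly6G-low T1-binding myeloid cells and the 2 libraries of Ly6G-high T1-binding myeloid cells, with every gene of the files. CT26 is a colon carcinoma line that was grown under the skin of BALB/C mice, and T1 is an aptamer, a nucleic acid selected to stick to a target on cells. All 4 libraries share the strain, the tumour model (1800 mm3 when taken), the sort by flow cytometry and the binding of T1, and the labels separate them by the Ly6G gate. The labels call the Ly6G-high cells a PMN subset and the Ly6G-low cells a myeloid subset. Which other surface markers were gated, how pure the sorts were and whether the libraries kept the RNA strand are not given in the sources used here. Each gate was sampled in the same 2 mice, and values below are given for mouse 1 and then mouse 2. With 2 animals a gate, the p-values measure only the spread between these libraries.

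Ly6G is an anchored surface protein that marks mouse neutrophils, short-lived granulocytes that enter tumours and act through granules, oxidants and cytokines. Monocytes and the macrophages they give rise to carry little of it and are known instead for Csf1r, complement C1q and antigen presentation through MHC class II. In tumours, both kinds of cell can be turned toward restraining T cells.

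Total counts were 23595976 and 24956983 in the Ly6G-low libraries and 27821970 and 24183878 in the Ly6G-high libraries, and 13576 of 35275 genes were abundant enough to test. A count of 0 allows at most 0.120 to 0.127 CPM of the total in the Ly6G-low libraries and 0.108 to 0.124 CPM in the Ly6G-high libraries, a limit that covers counting error only. Levels are CPM, counts over a library size that was scaled by TMM. Fold changes are Ly6G-low over Ly6G-high, and a gene was called when edgeR's quasi-likelihood adjusted p was under 0.05. In bulk RNA, fewer cells of a type and less RNA per cell cannot be told apart. Genes with near-identical copies, such as Hspa1a and Hspa1b, Mrgpra2a and Mrgpra2b, or the Stfa and globin genes, may share reads.

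Leukocyte transcripts were lower in Ly6G-low cells, most genes of cell division, ribosome assembly, collagens and caveolae were higher, and the falls went far deeper than the rises. Of the tested genes, 2955 were called higher (21.8% of all tested) and 3721 lower (27.4%). Every called gene had the same sign in both mice. At 10 CPM or more in the gate where a gene was higher, 2322 called genes rose by a median of 0.87 on the log2 scale and 2768 fell by a median of 1.51. In all of them the libraries of the 2 gates did not overlap. With 2 libraries a gate, a call nearly requires this and the same sign in both mice. Neither is separate support for the calls. Only 5 of these rises passed 4-fold and 0 passed 8-fold, against 998 falls past 4-fold, 311 past 8-fold and 125 past 16-fold. The 95th percentile of the rises was 1.59 and the largest was 2.27, whereas for the falls these values were 3.84 and 7.30 (log2 size). Larger rises were confined, among called genes, to those under 10 CPM. The scaling sets where 0 lies: TMM put 44.3% of calls on the higher side, upper-quartile factors 55.9% and plain library totals 72.9%. The median of all tested genes lay at 0.04 with TMM, 0.23 with upper-quartile factors and 0.62 with totals. Of the genes given below as not called, Aim2, Ccl25, Cd63, Ctsl, Eno1, Fosb, Hmgb1, Il33, Irak1, Itgb7, Mavs, Spp1 and Vim were called higher with totals, and Ccl25, Hmgb1 and Mavs also with upper-quartile factors.

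**Figure D1:**
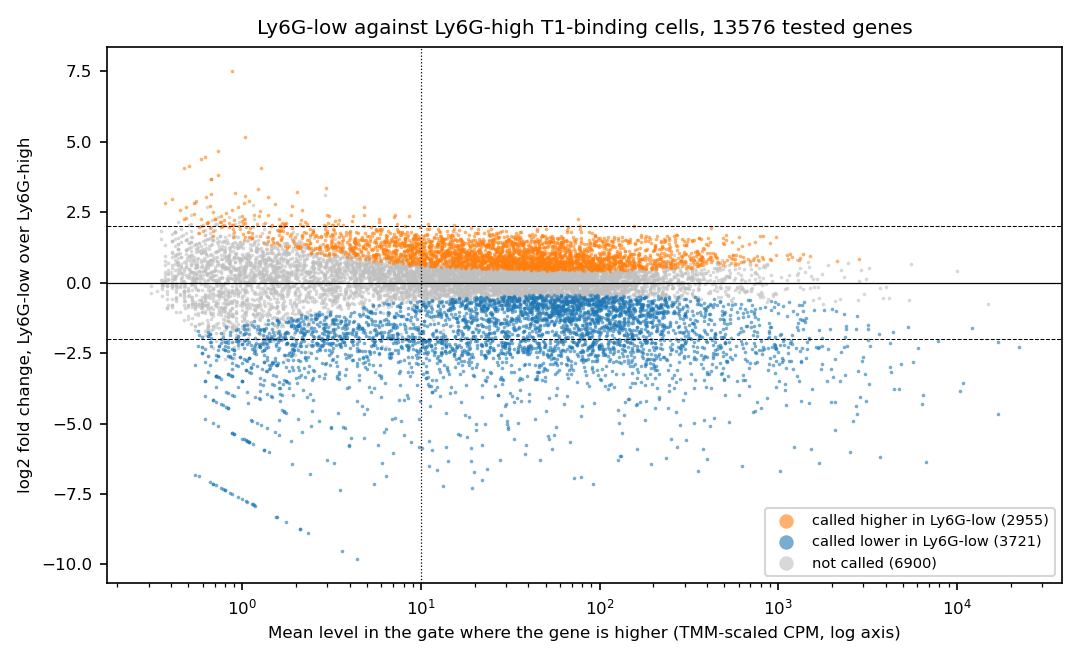
Each point is 1 of 13576 tested genes, with its mean level in the gate where it was higher (TMM-scaled CPM, log axis) against its log2 fold change, Ly6G-low over Ly6G-high. Orange points were called higher, blue points called lower and grey points not called, the dashed lines mark 4-fold and the dotted line 10 CPM, and to its right the orange points stop near 2 while blue points reach -7.30.

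The gate itself was read first. Ly6g (ENSMUSG00000022582, chromosome 15, 75155240 to 75159126, GENCODE M21 on GRCm38, protein-coding) was at 0.206 and 0.0328 CPM in the Ly6G-low gate, against 11.5 and 10.7 CPM in the Ly6G-high gate. It was 90.5-fold lower in Ly6G-low cells by the model (log2 fold -6.50 ± 0.51 SE, edgeR adjusted p = 0.00118). The gates did not overlap, and mouse 2 of the Ly6G-low gate held 1 read of it. The integrin Itgam, which marks myeloid cells in general, was at 240.1 and 403 CPM in the Ly6G-low gate, against 2508 and 1651 CPM in the Ly6G-high gate (log2 fold change -2.69). Ptprc, the common leukocyte antigen, was at 74.5 and 131 CPM in the Ly6G-low gate, against 1165 and 751 CPM in the Ly6G-high gate (log2 fold change -3.22). The monocyte antigen Ly6c2 and the macrophage antigen Emr1 (Adgre1) had log2 fold changes of -2.60 and -2.04, less negative than Ptprc. All 5 genes fell.

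The promoters of Ly6g and of S100a8, a calcium-binding alarmin that is among the most abundant neutrophil proteins, are shown because both genes fell deeply (90.5-fold lower and 73.3-fold lower) and both hold a core of the PU.1 site. PU.1 is the transcription factor that myeloid genes share, and its own gene Spi1 was at 36.6 and 55.6 CPM in the Ly6G-low gate, against 324 and 272 CPM in the Ly6G-high gate (log2 fold change -2.69; named after its value was seen). The windows run from 250 bases before to 50 bases after a RefSeq start on GRCm38.p6, 5′ to 3′ on the gene's strand, with GAGGAAGT or its reverse complement in capitals; Ly6g is at chr15:75155079-75155378 (plus strand) and S100a8 at chr3:90668821-90669120 (plus strand).
Ly6g: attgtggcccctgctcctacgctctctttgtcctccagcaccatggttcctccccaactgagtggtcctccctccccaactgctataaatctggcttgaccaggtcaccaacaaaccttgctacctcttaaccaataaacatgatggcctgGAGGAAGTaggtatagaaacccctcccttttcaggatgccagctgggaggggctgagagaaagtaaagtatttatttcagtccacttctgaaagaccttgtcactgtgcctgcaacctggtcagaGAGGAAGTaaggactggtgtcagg
S100a8: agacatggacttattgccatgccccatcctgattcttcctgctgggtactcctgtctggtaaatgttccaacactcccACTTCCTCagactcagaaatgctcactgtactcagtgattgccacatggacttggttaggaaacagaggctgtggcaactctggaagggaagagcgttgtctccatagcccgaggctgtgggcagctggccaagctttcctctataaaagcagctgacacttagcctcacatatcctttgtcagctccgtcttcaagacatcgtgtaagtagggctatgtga
GAGGAAGT was found on either strand in 4 of 26 windows of the neutrophil identity list (15.4%, 25 of 27 genes with a window), in 4 of 25 of the pan-leukocyte list (16.0%, 19 of 27 genes) and in 3.20% of all 32851 windows in the table. It was in 0 of 26 windows of the replication list. These are counts of windows and not of genes. The neutrophil count includes a further window of Ly6g (chr15:75155011-75155310), which overlaps the window shown and shares a match with it. These letters contain none of the other motifs searched. A match is only a run of letters, and no binding was measured. The fall of Spi1 was close to the median of the pan-leukocyte list (-2.67). Any part of Spi1 in the falls of Ly6g and S100a8 was not tested.

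Neutrophil genes fell further than any other list. All 26 tested members of the neutrophil identity list (of 27) fell, and the list median was -6.17, against 27.4% of all tested genes called lower. S100a9, the partner of S100a8, was at 131 and 32.4 CPM in the Ly6G-low gate, against 7844 and 5555 CPM in the Ly6G-high gate. The gates were far apart in every pairing of libraries, and within the Ly6G-low gate mouse 2 was lower than mouse 1. Cxcr2, the receptor for neutrophil-drawing chemokines, was at 4.75 and 2.23 CPM in the Ly6G-low gate, against 449 and 259 CPM in the Ly6G-high gate (102-fold lower, edgeR adjusted p = 0.00113). G0s2, an inhibitor of fat breakdown, was at 15.4 and 4.39 CPM in the Ly6G-low gate, against 1348 and 700.0 CPM in the Ly6G-high gate (104-fold lower). The lowest fold change among genes of at least 10 CPM was that of Mrgpra2a, a receptor of the Mas-related family, at 0.138 and 0.0983 CPM in the Ly6G-low gate, against 21.9 and 16.5 CPM in the Ly6G-high gate (log2 fold change -7.30 ± 0.36 SE, edgeR adjusted p = 0.00108). Olfm4, a glycoprotein of neutrophil granules, followed at 0.997 and 0.295 CPM in the Ly6G-low gate, against 124 and 59.5 CPM in the Ly6G-high gate. Ankrd22 had 5 and 0 reads in Ly6G-low cells, against 324 and 239 reads in Ly6G-high cells. Also among the 12 lowest were the stefin Stfa2, the chitinase-like Chil1, Ceacam10, Mrgpra2b and the cytokine Il1f9 (IL-36 gamma), each with a log2 fold change under -6.

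Neutrophil genes outside this tier fell less. Lcn2, lipocalin, was at 14.4 and 11.9 CPM in the Ly6G-low gate, against 178 and 137 CPM in the Ly6G-high gate (log2 fold change -3.57). Trem1, an amplifier of inflammation, was at 103 and 70.8 CPM in the Ly6G-low gate, against 3657 and 1571 CPM in the Ly6G-high gate (log2 fold change -4.91). Neither overlapped between gates. Granule and precursor genes (11 tested of 14, median -3.31) fell in all 11, among them Cybb, the catalytic subunit of the phagocyte oxidase, at 102 and 204 CPM in the Ly6G-low gate, against 751 and 870.1 CPM in the Ly6G-high gate. The precursor genes Elane and Mpo, whose products are loaded into granules in the marrow, were too rare to test. Elane had 0 and 0 reads in Ly6G-low cells, against 110.0 and 0 reads in Ly6G-high cells. Mpo had 1 and 0 reads in Ly6G-low cells, against 230.0 and 5 reads in Ly6G-high cells. Nearly all of both came from Ly6G-high mouse 1. In the list of chemoattractant receptors of neutrophils, which also holds receptors of other ligands, 13 of 13 tested members fell (median -3.71). Hcar2, a receptor for hydroxybutyrate and niacin, was at 58.5 and 19.7 CPM in the Ly6G-low gate, against 3394 and 1624 CPM in the Ly6G-high gate. The chemokine receptor Ccr1 was at 173 and 172 CPM in the Ly6G-low gate, against 3799 and 1975 CPM in the Ly6G-high gate. C5ar1, the receptor of complement C5a, had a log2 fold change of -3.50.

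**Figure D2:**
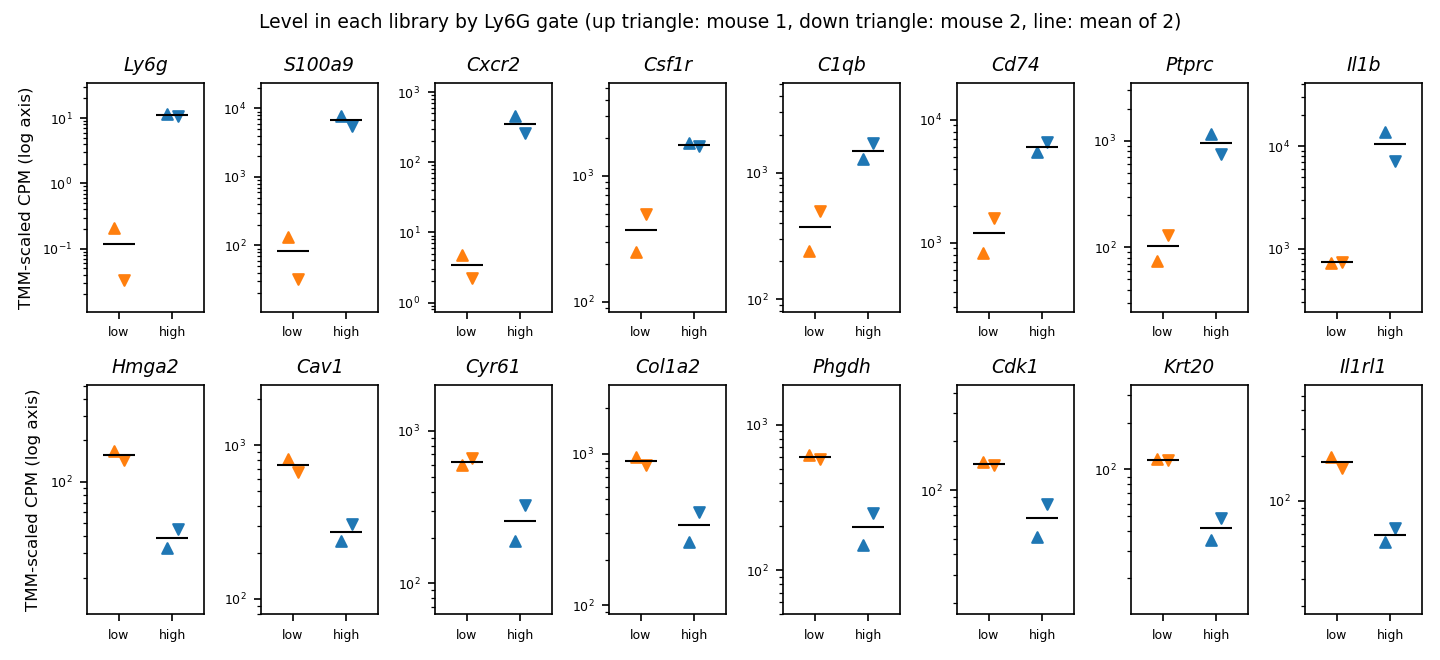
Level of 16 genes in each library (TMM-scaled CPM, log axis), Ly6G-low in orange and Ly6G-high in blue, with 1 triangle per mouse and a line at the mean of 2. The top row holds leukocyte genes, lower in both Ly6G-low libraries, and the bottom row genes that were higher there, with no overlap of gates in any panel.

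Genes of the pan-leukocyte list fell together, though not every leukocyte carries all of them. All 27 members of the pan-leukocyte list fell, by a median of -2.67 (-3.18 within mouse 1 and -2.22 within mouse 2). Their summed level was 2733.04 and 3721.61 CPM in the Ly6G-low gate, against 28914.20 and 20920.80 CPM in the Ly6G-high gate. No member was at 0 in any library. The deepest of them was Srgn, serglycin, the proteoglycan that packs granules, at 348 and 305 CPM in the Ly6G-low gate, against 8031 and 4823 CPM in the Ly6G-high gate (log2 fold change -4.30). Lcp1, the actin bundler of blood cells, had a log2 fold change of -2.78 and Itgb2, the shared chain of the leukocyte integrins, one of -2.54. Arhgap9, a GTPase-activating protein, was among the least negative (-1.10). In the list of leukocyte integrins and rolling molecules 11 of 14 tested members fell, and the 3 exceptions included Itgb7, the chain of gut-homing integrins, at 217 and 184 CPM in the Ly6G-low and 156 and 178 CPM in the Ly6G-high gate.

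Monocyte, macrophage and antigen-presentation genes fell too, but by less than the leukocyte genes did. Of 16 monocyte genes 15 fell (median -2.36), of 27 tested macrophage genes 22 fell and 1 rose (median -2.01), and all 13 tested MHC class II genes fell (median -2.28). Csf1r, the receptor for the growth factor of macrophages, was at 251 and 495 CPM in the Ly6G-low gate, against 1822 and 1715 CPM in the Ly6G-high gate. C1qb, a chain of complement C1q, was at 239 and 500.1 CPM in the Ly6G-low gate, against 1283 and 1703 CPM in the Ly6G-high gate. Apoe, the lipid carrier of macrophages, was at 625 and 1299 CPM in the Ly6G-low gate, against 4133 and 4352 CPM in the Ly6G-high gate. In each of these the Ly6G-low library of mouse 2 held about 2 times the level of mouse 1, still below both Ly6G-high libraries. MHC class I and immunoproteasome genes, which nearly all cells express, fell in 11 of 18 cases (median -0.73), in 6 without Ly6G-low replicate 1 and in 3 with library totals. Cd74, the invariant chain that escorts MHC class II, was at 823 and 1586 CPM in the Ly6G-low gate, against 5446 and 6649 CPM in the Ly6G-high gate (log2 fold change -2.33), and H2-Eb1 and the protease Ctss had log2 fold changes of -2.34 and -2.26. The macrophage genes that did not fall were Spp1, osteopontin, at 11288 and 8762 CPM in the Ly6G-low and 8501 and 6431 CPM in the Ly6G-high gate, the tetraspanin Cd63 at 964 and 868 CPM in the Ly6G-low and 747 and 788 CPM in the Ly6G-high gate, Lyve1, Vsig4 and Gpnmb. Lyve1 was called lower without Ly6G-low replicate 2 (log2 fold change -0.95), and Vsig4 with the mouse block (-1.02) and without Ly6G-low replicate 1 (-1.38) or Ly6G-high replicate 2 (-1.53). Gpnmb, a glycoprotein of lipid-laden macrophages and some tumour cells, was called higher at 58 and 36.6 CPM in the Ly6G-low and 26.8 and 22.5 CPM in the Ly6G-high gate, a call lost without Ly6G-low replicate 1 (log2 fold change 0.57), Ly6G-high replicate 1 (1.06) or Ly6G-high replicate 2 (0.81).

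The medians of the neutrophil lists lay below the pan-leukocyte median. Those of the macrophage, MHC class II, dendritic and monocyte lists lay above it. An offset above 0 was not particular to these lineages. T and NK cell genes lay at 1.37, MHC class I genes at 1.93, lysosomal genes at 1.35 and interferon-stimulated genes at 0.87. The TREM, CD300, PIR and Siglec list lay at -0.45 and the interleukin-1 family at -0.43. A change of scaling shifts all lists alike and cancels in such an offset. The median of the neutrophil identity list, minus that of the pan-leukocyte list, was -3.50 on the log2 scale, with 26 of 26 members below it in both mice, and that of the chemoattractant receptors -1.04, with 11 of 13. The granule and precursor list lay at -0.64 but was split, with 6 of 11 members below and 4 above in both mice. The macrophage list lay at 0.66, with 26 of 27 members above in both mice. MHC class II genes lay at 0.39 (12 of 13 above), dendritic cell genes at 0.92 (11 of 15) and monocyte genes at 0.31 (9 of 16). Fc gamma receptor genes lay at -0.03. The neutrophil offset was -2.43 in mouse 1 and -4.21 in mouse 2, and the macrophage offset 0.75 and 0.52. These offsets are descriptions with no test. Within the dendritic list 11 of 15 tested genes fell, and 7 when either Ly6G-high replicate was left out or with library totals. Ccr7, the receptor that leads mature cells to lymph nodes, was at 16.1 and 19.7 CPM in the Ly6G-low and 67.6 and 58.1 CPM in the Ly6G-high gate, while Fscn1, an actin bundler of mature dendritic and of mesenchymal cells, rose (log2 fold change 1.07). Zbtb46, a factor that defines classical dendritic cells, was at 5.36 and 5.9 CPM in the Ly6G-low and 5.79 and 6.81 CPM in the Ly6G-high gate and was not called.

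**Figure D3:**
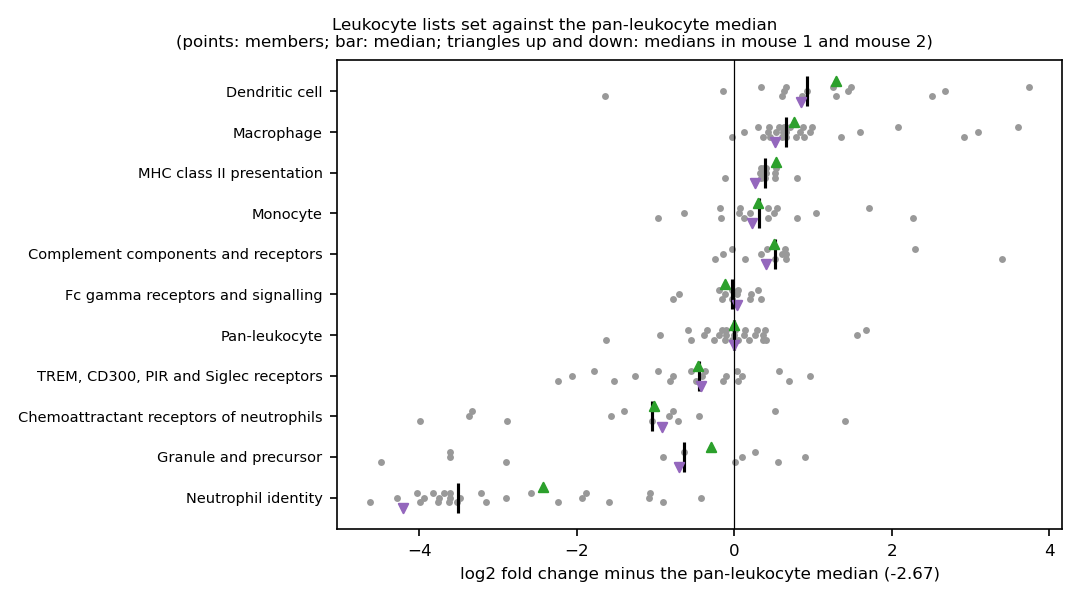
Log2 fold change of each tested member of 11 leukocyte lists minus the pan-leukocyte median of -2.67, as grey points, with the list median as a bar and the medians within mouse 1 (upward triangle) and mouse 2 (downward triangle). Macrophage, MHC class II and dendritic medians lie right of 0 and neutrophil, granule and chemoattractant receptor medians left of it in both mice.

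The transcription factors that set myeloid identity fell in 18 of 20 tested cases (median -2.31). Cebpb, which drives emergency production of granulocytes, was at 186 and 227 CPM in the Ly6G-low gate, against 2032 and 1461 CPM in the Ly6G-high gate. Irf8, which favours monocytes and dendritic cells, had a log2 fold change of -2.06. Nfe2, a factor of megakaryocytes and erythroid cells that neutrophils also carry, was the lowest at -5.02 (named after its value was seen). Klf4 was at 254 and 203 CPM in the Ly6G-low and 269 and 213 CPM in the Ly6G-high gate and was not called. Nor was Batf3, a dendritic cell factor (-2.01), which was called with the mouse block (-2.34) and without Ly6G-low replicate 2 (-5.16).

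Receptors through which myeloid cells sense antibody, microbes and damage fell nearly throughout. All 13 Fc gamma receptor and signalling genes fell, with the inhibitory receptor Fcgr2b at 216 and 324 CPM in the Ly6G-low gate, against 1504 and 1212 CPM in the Ly6G-high gate. All 20 members of the TREM, CD300, PIR and Siglec list fell (median -3.12). The inhibitory receptor Lilrb4 was at 189 and 207 CPM in the Ly6G-low gate, against 2931 and 1516 CPM in the Ly6G-high gate. Its neighbour Gp49a, with which it may share reads, was 18.3-fold lower. Of 15 tested C-type lectins 14 fell, among them Clec4e, the sensor of mycobacterial cord factor, at 81.2 and 74.2 CPM in the Ly6G-low gate, against 1951 and 1016 CPM in the Ly6G-high gate, and the mannose receptor Mrc1 with a log2 fold change of -1.97; Cd209d (0.19) was not called. Toll-like receptors and their adaptors fell in 14 of 15 cases. Cd14, which hands endotoxin to Tlr4, was at 793 and 1022 CPM in the Ly6G-low gate, against 12528 and 9128 CPM in the Ly6G-high gate (log2 fold change -3.58), and the kinase Irak1 at 145 and 150.1 CPM in the Ly6G-low and 131 and 135 CPM in the Ly6G-high gate, not called. Complement genes fell in 11 of 13 tested cases; the inhibitor Serping1 was called higher (0.74), a call lost without Ly6G-low replicate 1 (0.59) or Ly6G-high replicate 1 (0.47), and 1 member was not called.

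Sensors of nucleic acids moved less and in parts. Of 16 members 10 fell and 1 rose, with a median of -0.75 (-0.16 with library totals). The lowest value of the list (log2 fold change -4.24) was that of Nlrp3, an inflammasome sensor that is not specific to nucleic acids. Nlrp3 was at 43.2 and 37.8 CPM in the Ly6G-low gate, against 1099.9 and 428 CPM in the Ly6G-high gate. Unc93b1, the escort of endosomal Toll-like receptors, fell too (-2.25). The RNA helicase Dhx9 rose to 35 and 44.2 CPM in the Ly6G-low gate, against 15.1 and 21.9 CPM in the Ly6G-high gate. Tlr3 (-0.47), Mb21d1, the gene of cGAS (-0.02), Aim2 (0.20), Mavs (0.31) and Hmgb1 (0.52) were not called, although Hmgb1 was called higher without Ly6G-high replicate 2 (0.63). Inflammasome genes fell in 12 of 14 cases, with Aim2 and Casp1 (-0.30) as exceptions. Of 16 tested scavenger receptors 11 fell, Msr1 and Cd68 at log2 fold changes of -2.22 and -2.30. Scara3 at 24.2 and 17.7 CPM in the Ly6G-low gate, against 7.23 and 9.2 CPM in the Ly6G-high gate and Scara5, a ferritin receptor, at 13.6 and 12.8 CPM in the Ly6G-low gate, against 4.93 and 6.2 CPM in the Ly6G-high gate rose, and 3 members were not called. Of 9 tested oxidase genes 7 fell, including Cyba (-1.62) and Rac2 (-2.79), and 2 were not called.

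Interleukin-1 ligands, their antagonist and their decoy fell, while a pair of receptors rose. Il1b was at 727 and 741 CPM in the Ly6G-low gate, against 13760.2 and 7218 CPM in the Ly6G-high gate (14.3-fold lower). The antagonist Il1rn was at 340.4 and 347 CPM in the Ly6G-low gate, against 5863 and 3627 CPM in the Ly6G-high gate. The decoy receptor Il1r2 was at 62.7 and 47.3 CPM in the Ly6G-low gate, against 2786 and 1388 CPM in the Ly6G-high gate. The groups were far apart in all of these. Il1rl1, the receptor of IL-33, rose to 196 and 165 CPM in the Ly6G-low gate, against 53.1 and 66.3 CPM in the Ly6G-high gate (log2 fold change 1.59 ± 0.19 SE, edgeR adjusted p = 0.00171). Il1r1, the signalling receptor of IL-1, rose to 45.3 and 45.4 CPM in the Ly6G-low gate, against 17.2 and 23.1 CPM in the Ly6G-high gate. Il1rap, the chain that both receptors need to signal, fell (-3.75; named after its value was seen). In all, 10 of 13 tested members fell and 2 rose, and Il33 itself was at 4.78 and 1.93 CPM in the Ly6G-low and 2.35 and 1.88 CPM in the Ly6G-high gate and not called (1.19 and called higher without Ly6G-low replicate 2). Other cytokines fell in 13 of 20 cases. Osm, oncostatin M, was at 180.1 and 215 CPM in the Ly6G-low gate, against 2559 and 1477 CPM in the Ly6G-high gate and Tnf at 31.3 and 34.3 CPM in the Ly6G-low gate, against 285 and 131 CPM in the Ly6G-high gate, and Tgfb1 had a log2 fold change of -1.97. Il11, a cytokine of stromal and tumour cells, rose to 24.8 and 25 CPM in the Ly6G-low gate, against 8.28 and 9.86 CPM in the Ly6G-high gate, as did Il34, another ligand of Csf1r, at 24.1 and 21.3 CPM in the Ly6G-low and 8.81 and 9.29 CPM in the Ly6G-high gate, and Csf2 at 19.9 and 30.6 CPM in the Ly6G-low and 4.31 and 12.9 CPM in the Ly6G-high gate. The call of Csf2 was lost without Ly6G-high replicate 1 (log2 fold change 0.96), with all 6 libraries (1.56) and with no filter (1.57). The other 4 members were not called.

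Chemokines fell in 12 of 13 tested CXC and 12 of 14 tested CC members. Cxcl2, which draws neutrophils, was at 407 and 401 CPM in the Ly6G-low gate, against 8531 and 4333 CPM in the Ly6G-high gate (log2 fold change -3.99). Ccl3, which draws monocytes and T cells, was at 113 and 103 CPM in the Ly6G-low gate, against 3627 and 1875 CPM in the Ly6G-high gate (log2 fold change -4.67). Ccl6 was at 781 and 854 CPM in the Ly6G-low gate, against 6717 and 4717 CPM in the Ly6G-high gate. The exceptions were Cxcl12 (0.13), Ccl11 (-0.26) and Ccl25 (0.87). Ccl25 was called higher with all 6 libraries (0.88) and with a filter of at least 50 counts in 2 libraries (0.84). Interferon-stimulated genes fell in 24 of 25 cases (median -1.80), with the antiviral enzyme Rsad2 at 32.3 and 44 CPM in the Ly6G-low gate, against 739.6 and 469 CPM in the Ly6G-high gate and Isg15 11-fold lower. Gbp3 (-0.64) was not called, but was with the mouse block (-0.61), without Ly6G-low replicate 2 (-0.82) and without Ly6G-high replicate 1 (-0.99). Immediate-early genes, which cells switch on within minutes of a stimulus, fell in 18 of 20 cases (median -1.97). The phosphatase Dusp1 was at 453 and 504 CPM in the Ly6G-low gate, against 5445 and 3088 CPM in the Ly6G-high gate and Junb at 559 and 683 CPM in the Ly6G-low gate, against 2872 and 1835 CPM in the Ly6G-high gate. Fosl1, a partner of Jun that invasive tumour cells often carry, rose to 247 and 247 CPM in the Ly6G-low gate, against 139 and 126 CPM in the Ly6G-high gate, and Fosb (0.04) was not called.

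Named eicosanoid genes moved in both directions. Alox5ap, which presents arachidonic acid to 5-lipoxygenase, was at 55.6 and 72.2 CPM in the Ly6G-low gate, against 391 and 314 CPM in the Ly6G-high gate, and the thromboxane synthase Tbxas1 at 21.5 and 35.6 CPM in the Ly6G-low gate, against 128 and 129 CPM in the Ly6G-high gate; both fell. The terminal prostaglandin E synthase Ptges rose to 214 and 195 CPM in the Ly6G-low gate, against 78.4 and 96.6 CPM in the Ly6G-high gate (log2 fold change 1.22), and the constitutive cyclooxygenase Ptgs1 was called higher at 253 and 210.3 CPM in the Ly6G-low and 132 and 147 CPM in the Ly6G-high gate. The inducible cyclooxygenase Ptgs2 was called lower at 1087 and 1186 CPM in the Ly6G-low and 4331 and 2072 CPM in the Ly6G-high gate. Without Ly6G-low replicate 1 the calls of Ptgs1 (log2 fold change 0.60) and Ptgs2 (-1.43) were lost. In the list as a whole 5 of 15 tested genes fell and 3 rose, shares near the 27.4% lower and 21.8% higher of all tested genes. Of the genes tied to suppression by myeloid cells, 20 of 23 tested fell and 2 rose, Ptges and Tnfrsf10b, a death receptor at 9.84 and 12.3 CPM in the Ly6G-low and 4.5 and 5.68 CPM in the Ly6G-high gate. Lysosomal genes fell in 19 of 22 cases, by a median of -1.32; Ctsd was at 991 and 1073 CPM in the Ly6G-low gate, against 4415 and 2923 CPM in the Ly6G-high gate, whereas the cathepsin Ctsl was at 2912 and 2724 CPM in the Ly6G-low and 2988 and 2369 CPM in the Ly6G-high gate, not called. Lipid-handling genes fell in 14 of 17 tested cases, with the lipid-droplet protein Plin2 at 250.2 and 253 CPM in the Ly6G-low gate, against 1592 and 920.0 CPM in the Ly6G-high gate.

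Glucose and lactate transporters and some kinases of upper glycolysis fell, while Tpi1, Gapdh, Pgk1, Eno1 and Ldha were not called. Slc16a3, a lactate exporter, was at 121 and 103 CPM in the Ly6G-low gate, against 1955 and 1134 CPM in the Ly6G-high gate (13.8-fold lower). The glucose transporter Slc2a1 was at 345 and 308 CPM in the Ly6G-low gate, against 1529 and 857 CPM in the Ly6G-high gate. Slc2a3, a high-affinity glucose transporter, was at 7.08 and 5.6 CPM in the Ly6G-low gate, against 503 and 260.4 CPM in the Ly6G-high gate (log2 fold change -5.91; named after its value was seen). Gapdh, in contrast, was at 3472 and 3121 CPM in the Ly6G-low and 3923 and 3532 CPM in the Ly6G-high gate, Eno1 at 3345 and 2889 CPM in the Ly6G-low and 3084 and 2573 CPM in the Ly6G-high gate and Ldha at 3977 and 3259 CPM in the Ly6G-low and 4517 and 3558 CPM in the Ly6G-high gate, with log2 fold changes of -0.18, 0.14 and -0.16. Of 26 glycolysis and hypoxia genes 13 fell and 1 rose, with a median of -0.71 (-0.10 with library totals). Car9, a hypoxia-induced carbonic anhydrase of tumour cells, was called higher at 57.5 and 34.7 CPM in the Ly6G-low and 18.4 and 25 CPM in the Ly6G-high gate, a call lost without Ly6G-low replicate 1 (log2 fold change 0.68) or Ly6G-high replicate 1 (0.87). Vegfa, the angiogenic factor that hypoxia induces, fell to 225 and 230.4 CPM in the Ly6G-low gate, against 966 and 561 CPM in the Ly6G-high gate.

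Genes of the stress programmes were found on both sides. Slc7a11, which imports cystine for glutathione, was at 35.5 and 27 CPM in the Ly6G-low gate, against 1023 and 460.4 CPM in the Ly6G-high gate (23.7-fold lower). Hmox1, heme oxygenase, was at 245 and 201 CPM in the Ly6G-low gate, against 1421 and 629 CPM in the Ly6G-high gate. Gsto1, a glutathione transferase, rose instead to 367 and 334 CPM in the Ly6G-low gate, against 135 and 188 CPM in the Ly6G-high gate and the aldose reductase Akr1b8 to 67.2 and 59.5 CPM in the Ly6G-low gate, against 32.4 and 32.2 CPM in the Ly6G-high gate. Of 19 tested NRF2 and glutathione genes 8 fell (5 without Ly6G-low replicate 1 and 3 with library totals) and 4 rose. In the ATF4 and unfolded protein list 9 of 20 fell and 4 rose. The shares that rose are near the 21.8% of all tested genes. The medians of both lists were -0.31 and turned positive with library totals (0.30 each). Asns, asparagine synthetase, a target of ATF4, rose to 586 and 513 CPM in the Ly6G-low gate, against 172 and 229 CPM in the Ly6G-high gate (log2 fold change 1.46 ± 0.22 SE, edgeR adjusted p = 0.00331). Xbp1, the factor that expands the secretory apparatus, fell to 137 and 143 CPM in the Ly6G-low gate, against 874 and 548 CPM in the Ly6G-high gate. Ppp1r15a, which restarts translation after stress, fell to 169 and 132 CPM in the Ly6G-low gate, against 1471 and 621 CPM in the Ly6G-high gate. Among heat shock genes the mitochondrial chaperonins Hspd1 (0.98) and Hspe1 (1.00) rose and the stress-inducible Hspa1a (-3.12) and Hspa1b (-2.01) fell.

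**Figure D4:**
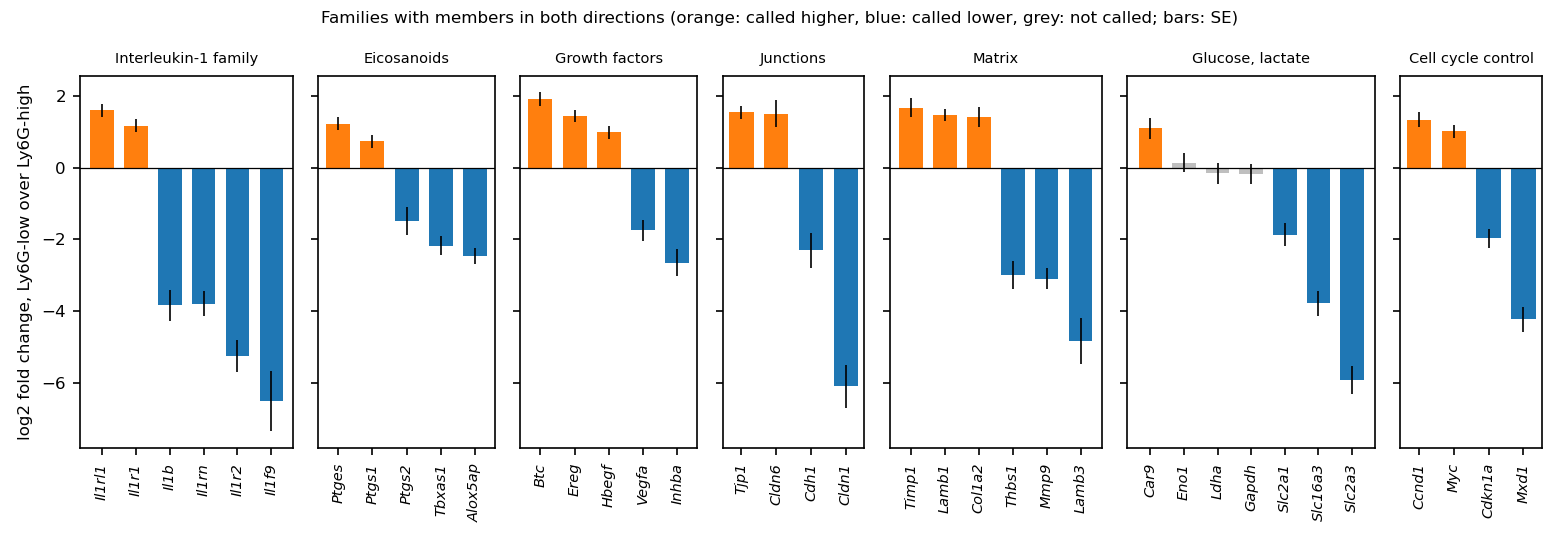
Log2 fold change, Ly6G-low over Ly6G-high, with its standard error for members of 7 families that moved in both directions, picked after their values were seen. Orange bars were called higher, blue bars lower and grey bars not called, and in every family the blue bars reach further from 0 than the orange ones.

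On the rising side, genes of cell division moved as a block. All 24 members of the mitosis list rose, against 21.8% of all tested genes called higher, with fold changes between 0.60 and 1.71 and a median of 1.09 (1.39 in mouse 1, 0.86 in mouse 2). Cdk1, the kinase that starts mitosis, was at 148 and 144 CPM in the Ly6G-low gate, against 51.4 and 82.3 CPM in the Ly6G-high gate. Ube2c, which marks cyclins for destruction, was at 161 and 153 CPM in the Ly6G-low gate, against 48.1 and 74.4 CPM in the Ly6G-high gate. Top2a, the topoisomerase that untangles chromosomes, was at 186 and 198 CPM in the Ly6G-low gate, against 75.4 and 118 CPM in the Ly6G-high gate. In each the Ly6G-low libraries lay close together and above both Ly6G-high libraries, of which mouse 2 was the higher. Of 28 replication genes 21 rose (median 0.94), with Rrm1, a subunit of ribonucleotide reductase, at 288 and 298 CPM in the Ly6G-low gate, against 126 and 169.7 CPM in the Ly6G-high gate and the helicase subunits Mcm6 and Mcm7 at log2 fold changes of 0.94 and 1.12. Of 18 recombination and mismatch repair genes 12 rose, a count that was 6 without Ly6G-high replicate 1. No member of these 3 lists fell. The summed pan-leukocyte level, 2733 and 3722 CPM in the Ly6G-low gate against 28914 and 20921 CPM in the Ly6G-high gate, ran the opposite way in the same libraries. Its part in these rises and in those below was not tested.

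Promoters of 3 mitotic genes are shown because the list moved together and its members are known to share a pair of elements, the CCAAT box and the cell cycle homology region (CHR). The windows are as above. Capitals mark the letters CCAAT and, for the CHR, the letters TTTGAA, on either strand. In Ube2c, boxes on opposite strands overlap, and no other matches do. Cdk1 is at chr10:69352863-69353162 (minus strand), Ube2c at chr2:164769679-164769978 (plus strand) and Top2a at chr11:99024140-99024439 (minus strand).
Cdk1: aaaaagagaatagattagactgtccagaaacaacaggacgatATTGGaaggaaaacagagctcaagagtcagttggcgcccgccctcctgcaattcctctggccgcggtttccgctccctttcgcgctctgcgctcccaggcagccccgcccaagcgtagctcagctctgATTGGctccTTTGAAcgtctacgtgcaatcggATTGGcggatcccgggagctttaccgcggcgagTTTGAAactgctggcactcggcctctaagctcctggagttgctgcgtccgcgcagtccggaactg
Ube2c: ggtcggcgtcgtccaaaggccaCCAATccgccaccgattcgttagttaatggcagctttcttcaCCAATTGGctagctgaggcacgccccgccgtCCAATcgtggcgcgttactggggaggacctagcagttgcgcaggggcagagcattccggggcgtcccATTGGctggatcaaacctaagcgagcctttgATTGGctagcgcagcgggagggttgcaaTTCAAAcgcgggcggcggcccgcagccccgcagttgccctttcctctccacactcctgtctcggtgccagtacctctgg
Top2a: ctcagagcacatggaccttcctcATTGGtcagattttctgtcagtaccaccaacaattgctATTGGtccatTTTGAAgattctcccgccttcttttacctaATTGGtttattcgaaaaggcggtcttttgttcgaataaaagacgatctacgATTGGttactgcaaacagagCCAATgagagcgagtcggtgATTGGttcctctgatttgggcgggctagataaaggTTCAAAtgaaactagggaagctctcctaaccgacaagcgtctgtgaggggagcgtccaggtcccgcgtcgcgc
The letters CCAAT were found on either strand in 18 of 21 windows of the mitosis list (85.7%, 20 of 24 genes with a window), against 37.4% of all windows, and TTTGAA in 15 of 21 (71.4%) against 17.9%. In the windows of the replication list these shares were 53.8% and 11.5%, and GCGGGAA, a core of the E2F site, was in 9 of 26 (34.6%) against 4.60% of all windows and 0 of 21 mitotic ones.

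Among switches of the cycle, activators rose and inhibitors fell in the genes named here. Ccnd1, cyclin D1, rose to 297 and 315 CPM in the Ly6G-low gate, against 98.8 and 143 CPM in the Ly6G-high gate. Myc rose to 115 and 138 CPM in the Ly6G-low gate, against 55.7 and 69 CPM in the Ly6G-high gate. Cdkn1a, the inhibitor p21, fell to 449 and 447 CPM in the Ly6G-low gate, against 2045 and 1453 CPM in the Ly6G-high gate (3.9-fold lower). Mxd1, which opposes Myc at its sites, fell to 102 and 118 CPM in the Ly6G-low gate, against 2634 and 1502 CPM in the Ly6G-high gate (18.8-fold lower). In the list of G1 regulators 5 of 17 tested genes rose and 6 fell, and without Ly6G-low replicate 1 these counts were 2 and 4. Of 15 tested p53 targets 5 rose and 5 fell, with 3 higher without Ly6G-low replicate 1 and 2 without Ly6G-low replicate 2. In both lists the shares lie not far from the 21.8% higher and 27.4% lower of all tested genes. Among p53 targets the pro-apoptotic Pmaip1 fell (-3.56) and the Akt-binding Phlda3 rose (1.55).

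Genes that build ribosomes and nucleotides rose with the cycle. Of 22 ribosome biogenesis genes 20 rose (median 0.90), with the nucleolar Mybbp1a at 367 and 384 CPM in the Ly6G-low gate, against 190.0 and 215 CPM in the Ly6G-high gate. Of 20 genes of one-carbon, serine and nucleotide synthesis 18 rose. Phgdh, the first enzyme of serine synthesis, was at 624 and 581 CPM in the Ly6G-low gate, against 149.8 and 246 CPM in the Ly6G-high gate (log2 fold change 1.61 ± 0.27 SE, edgeR adjusted p = 0.00484). The next enzyme, Psat1, was at 353 and 353 CPM in the Ly6G-low gate, against 134 and 189 CPM in the Ly6G-high gate. Shmt2, which passes serine carbon to folate in mitochondria, was 2.28-fold higher. Cytosolic ribosomal proteins rose in 18 of 30 cases with a narrow spread (0.49 to 0.92). Without Ly6G-low replicate 1 none of them and without Ly6G-low replicate 2 only 3 were called, with medians of 0.71 and 0.79, and upper-quartile factors called 29. Without Ly6G-high replicate 2 all 30 were called. Subunits of the chaperonin that folds actin and tubulin rose in 7 of 8 cases, whereas of 13 proteasome subunits 1, Psmd14, did; none of the 21 was called when either Ly6G-low replicate was left out, 4 were called with the mouse block and 19 with library totals. The median was 0.18 for nuclear-encoded and 0.39 for mitochondrially encoded respiratory chain genes, against 0.34 for the chaperonin and proteasome list. Few respiratory chain genes were called: 1 of 25 nuclear-encoded, Ndufs1 (0.50), and 0 of 11 mitochondrially encoded genes. Library totals called 22 and 10 of them higher, and leaving out Ly6G-high replicate 2 called 9 and 5 higher. The call of Ndufs1 was lost without Ly6G-low replicate 1 and without replicate 2, and with the mouse block. In fatty acid synthesis 7 of 14 tested genes rose and 3 fell, with 1 fall when either Ly6G-low replicate was left out or with the mouse block, and 0 with library totals. The synthase Fasn was at 204 and 239 CPM in the Ly6G-low gate, against 85.5 and 109 CPM in the Ly6G-high gate. The desaturase Scd1 was at 189 and 199.7 CPM in the Ly6G-low gate, against 64.1 and 82.2 CPM in the Ly6G-high gate.

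**Figure D5:**
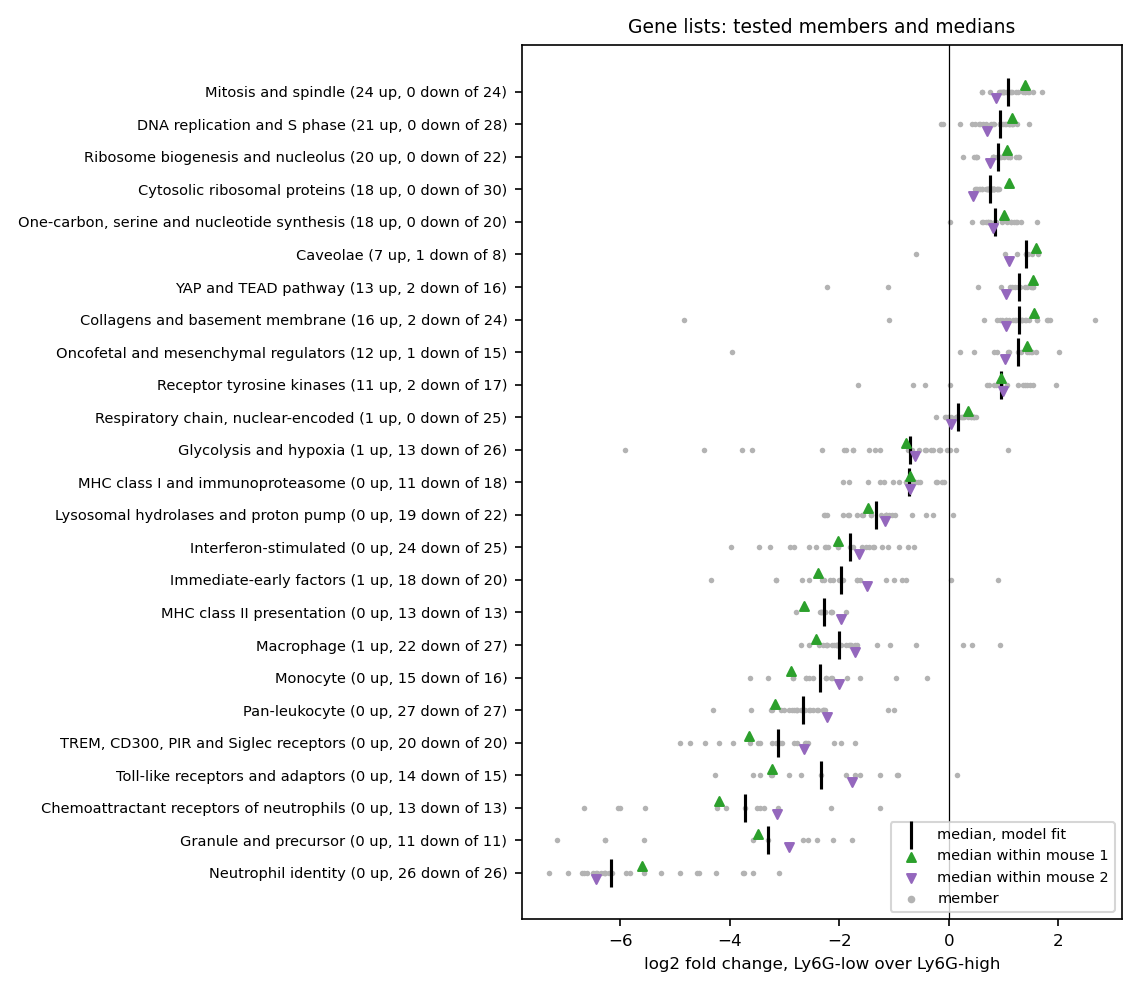
Log2 fold change, Ly6G-low over Ly6G-high, of the tested members (grey) of 25 gene lists, with the list median (bar) and the medians within mouse 1 and mouse 2 (triangles). The labels count the members called higher and lower, and the medians of the growth and matrix lists lie between 0.75 and 1.41, apart from the respiratory chain at 0.18, while the leukocyte lists run down to -6.17.

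Most collagen and caveolar genes rose, and other matrix genes moved in both directions. Of 24 collagen and basement membrane genes 16 rose and 2 fell (median 1.28). Col1a2, a chain of type I collagen, was at 946 and 848 CPM in the Ly6G-low gate, against 263 and 416 CPM in the Ly6G-high gate. The laminin chain Lamb1 was at 294 and 298 CPM in the Ly6G-low gate, against 99.5 and 116 CPM in the Ly6G-high gate. Lamb3, a laminin chain of epithelia, went the other way, at 0.378 and 0.0983 CPM in the Ly6G-low gate, against 9.19 and 4.51 CPM in the Ly6G-high gate. Timp1, an inhibitor of matrix proteases, rose to 941 and 708 CPM in the Ly6G-low gate, against 216 and 303 CPM in the Ly6G-high gate. Sparc, a collagen-binding protein, rose to 465 and 347 CPM in the Ly6G-low gate, against 107 and 162 CPM in the Ly6G-high gate. Thbs1, thrombospondin, fell to 459 and 608 CPM in the Ly6G-low gate, against 5447 and 3021 CPM in the Ly6G-high gate. The protease Mmp9 fell to 111 and 96.2 CPM in the Ly6G-low gate, against 1079 and 686 CPM in the Ly6G-high gate. In the matrix assembly list 13 of 26 rose and 6 fell, a count of falls that was 3 when either Ly6G-low replicate was left out, and its summed level was lower in the Ly6G-low gate (7066.66 and 6442.72 CPM) than in the Ly6G-high gate (13775.70 and 8284.92 CPM). Caveolar genes, which build the flask-shaped pits of the plasma membrane, rose in 7 of 8 cases. Cav1 was at 817 and 668 CPM in the Ly6G-low gate, against 239.9 and 308 CPM in the Ly6G-high gate. Ptrf, the coat protein cavin, was at 346 and 327 CPM in the Ly6G-low gate, against 101 and 132 CPM in the Ly6G-high gate. The eighth, Pacsin2, was called lower (-0.60), but not with the mouse block (-0.59) and not without Ly6G-low replicate 1 (-0.54) or 2 (-0.65), and it lay at 0.00 with library totals.

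The Hippo effectors rose with them. Of 16 tested YAP and TEAD genes 13 rose and 2 fell (median 1.28). Wwtr1, the co-activator TAZ, was at 229.7 and 238 CPM in the Ly6G-low gate, against 68.8 and 96.2 CPM in the Ly6G-high gate. Cyr61, one of the pathway's standard targets, was at 594 and 662 CPM in the Ly6G-low gate, against 189.5 and 326 CPM in the Ly6G-high gate. Nuak2, a kinase, and Lats2, which restrains YAP, fell (-2.23 and -1.11); the call of Lats2 was lost with library totals. Ctgf, another such target, was at 22.6 and 45.3 CPM in the Ly6G-low and 11.8 and 35.1 CPM in the Ly6G-high gate and was not called, though it was without Ly6G-low replicate 1 (0.95). The promoter of Cyr61 (Ccn1 in RefSeq, chr3:145649936-145650235, minus strand) is shown with GGAATGT or its reverse complement, a core of the TEAD site, in capitals.
Cyr61: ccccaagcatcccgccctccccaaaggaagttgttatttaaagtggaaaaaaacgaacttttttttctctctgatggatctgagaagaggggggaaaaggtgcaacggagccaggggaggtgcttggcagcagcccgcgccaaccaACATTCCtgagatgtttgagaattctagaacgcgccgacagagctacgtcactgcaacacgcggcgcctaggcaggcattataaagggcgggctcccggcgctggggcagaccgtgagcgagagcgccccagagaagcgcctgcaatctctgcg
These letters were in 7 of 17 windows of the list (41.2%, 13 of 18 genes with a window) and in 3.85% of all windows. Several members of the list are known as targets because of such sites.

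The largest rises among genes of at least 10 CPM were a mixed group. Gpr124 (ENSMUSG00000031486, chromosome 8, 27085583 to 27123436), now Adgra2, a receptor of vessels and fibroblasts that aids Wnt7 signalling, was at 87.9 and 63 CPM in the Ly6G-low gate, against 12.5 and 18.7 CPM in the Ly6G-high gate (log2 fold change 2.27 ± 0.27 SE, edgeR adjusted p = 0.00169). Hmga2 (ENSMUSG00000056758, chromosome 10, 120361275 to 120476469), a chromatin protein of embryos and tumours, was at 168 and 145 CPM in the Ly6G-low gate, against 32.6 and 45.1 CPM in the Ly6G-high gate (4.02-fold higher, edgeR adjusted p = 0.00137). The water channel Aqp1 was at 464 and 376 CPM in the Ly6G-low gate, against 95 and 126 CPM in the Ly6G-high gate. The EGF receptor ligand Btc, betacellulin, was at 82.4 and 73.5 CPM in the Ly6G-low gate, against 18.1 and 23.5 CPM in the Ly6G-high gate. Cnfn, the galectin Lgals7, the natriuretic peptide Nppb, Npm3, Neurl1b, Nav3, Plekhh2 and the matrix protein Tnc made up the 12, with log2 fold changes between 1.90 and 2.10; the call of Tnc was lost without Ly6G-low replicate 2 (1.74), with DESeq2 (1.92) and with no filter on low counts (1.97). That both Ly6G-low libraries lay above both Ly6G-high libraries was a condition for choosing these 12 and is no added support. Among oncofetal and mesenchymal regulators 12 of 15 tested rose. Sox9, a progenitor factor, was at 147 and 136 CPM in the Ly6G-low gate, against 40.5 and 59.5 CPM in the Ly6G-high gate and Hmga1 at 301 and 291 CPM in the Ly6G-low gate, against 124 and 153 CPM in the Ly6G-high gate. Plagl1 was the exception that fell, at 0.0344 and 0.164 CPM in the Ly6G-low gate, against 1.77 and 1.5 CPM in the Ly6G-high gate, and Vim, vimentin, was at 2456 and 2203 CPM in the Ly6G-low and 2141 and 1924 CPM in the Ly6G-high gate, not called.

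Ligands and receptors between cells moved in both directions. Of the EGF receptor ligands, Ereg rose to 301 and 317 CPM in the Ly6G-low gate, against 108 and 121 CPM in the Ly6G-high gate and Hbegf to 558 and 559.7 CPM in the Ly6G-low gate, against 288 and 279 CPM in the Ly6G-high gate, next to Btc above. Inhba, the activin chain, fell to 66.1 and 60.9 CPM in the Ly6G-low gate, against 549 and 249 CPM in the Ly6G-high gate, like Vegfa. In all, 7 of 17 tested growth factors rose and 8 fell, with 5 falls without Ly6G-high replicate 1 and 10 without Ly6G-high replicate 2. Receptor tyrosine kinases rose in 11 of 17 tested cases, and 2 fell (1 when either Ly6G-low replicate or Ly6G-high replicate 1 was left out). Ddr2, a collagen receptor, was at 168 and 172 CPM in the Ly6G-low gate, against 52.9 and 73.2 CPM in the Ly6G-high gate. The ephrin receptor Epha2 was at 147 and 141 CPM in the Ly6G-low gate, against 50.4 and 52.3 CPM in the Ly6G-high gate. Wnt10a rose to 184 and 174 CPM in the Ly6G-low gate, against 49.7 and 80.0 CPM in the Ly6G-high gate. In its list of Wnt signalling genes 4 of 14 tested rose and 4 fell (28.6% each). These shares are near the 21.8% higher and 27.4% lower of all tested genes. Among focal adhesion genes 9 of 21 tested rose and 4 fell, with the laminin receptor chain Itga6 (1.27) higher and the adaptors Zyx (-2.79) and Pxn (-1.15) lower.

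Junction genes moved in both directions. Of 12 tested tight junction and polarity genes 7 rose and 2 fell (1 without Ly6G-high replicate 1). Tjp1, a scaffold of the junction, rose to 51.5 and 64.9 CPM in the Ly6G-low gate, against 19.5 and 20.6 CPM in the Ly6G-high gate. Cldn6, a claudin of embryos and tumours, rose to 128 and 149 CPM in the Ly6G-low gate, against 28.9 and 69 CPM in the Ly6G-high gate. Cldn1 was at 0.757 and 0.36 CPM in the Ly6G-low gate, against 54.5 and 21.6 CPM in the Ly6G-high gate (log2 fold change -6.09 ± 0.60 SE, edgeR adjusted p = 0.00133), nearly as deep as the neutrophil genes. Among epithelial genes the keratin Krt20 rose to 116 and 115 CPM in the Ly6G-low gate, against 35.2 and 48.3 CPM in the Ly6G-high gate. Cdh1, E-cadherin, fell to 9.01 and 5.83 CPM in the Ly6G-low gate, against 54.3 and 19.2 CPM in the Ly6G-high gate. Of 22 members 12 were abundant enough to test, 4 rose (3 with the mouse block) and 3 fell, and Epcam was under 1.5 CPM in all 4 libraries. The epithelial shares, 33.3% higher and 25% lower, are not far from the 21.8% and 27.4% of all tested genes.

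Markers of other cell types were read in the same libraries. Of 21 T and NK cell genes 12 fell and none rose (7 fell without Ly6G-low replicate 1, 8 without Ly6G-high replicate 1 and 4 without Ly6G-high replicate 2), and their summed level was 47.56 and 71.10 CPM in the Ly6G-low gate, against 162.43 and 196.02 CPM in the Ly6G-high gate. Erythroid and platelet genes fell in 8 of 11 tested cases (5 without Ly6G-high replicate 1), with the platelet chemokine Pf4, which macrophages also make, at 199 and 184 CPM in the Ly6G-low gate, against 1273 and 664 CPM in the Ly6G-high gate, and 1 rose, the integrin chain Itga2b at 2.44 and 1.8 CPM in the Ly6G-low gate, against 0.431 and 0.469 CPM in the Ly6G-high gate. Fibroblast genes were at 383.82 and 337.56 CPM summed in the Ly6G-low gate, against 538.94 and 449.77 CPM in the Ly6G-high gate. Of 16 fibroblast genes 2 were called higher and 4 lower (12.5% and 25%, against 21.8% and 27.4% of all tested genes). The number higher was 0 without Ly6G-high replicate 1 and 7 without Ly6G-high replicate 2. The list median was 0.24 (0.88 in mouse 1 and -0.23 in mouse 2), and it ran from -0.22 to 0.78 when a library was left out. Acta2, smooth muscle actin, was at 5.47 and 2.72 CPM in the Ly6G-low gate, against 87 and 45.4 CPM in the Ly6G-high gate and fell, as did the podoplanin gene Pdpn (-1.39). Endothelial genes summed to 42.88 and 25.64 CPM in the Ly6G-low gate, against 103.61 and 68.34 CPM in the Ly6G-high gate, most of it Pecam1, which myeloid cells carry too. Of 12 tested endothelial genes 1 was called higher and 3 lower (8.3% and 25%), with a median of 0.34. The share lower is near that of all tested genes. Without Ly6G-low replicate 1 the number higher was 0, and without Ly6G-low replicate 2 it was 5. The part of any of these cells in the other results was not tested.

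Per gene length, the most abundant transcript of Ly6G-low cells was Spp1, at 9231 and 7113 FPKM in Ly6G-low cells, against 4237 and 3759 FPKM in Ly6G-high cells. The ferritin chain Fth1 led in Ly6G-high cells, at 6504 and 6449 FPKM in Ly6G-low cells, against 22227 and 19064 FPKM in Ly6G-high cells. Ly6G-high cells next held Lyz2, S100a9, Ftl1 and S100a8, and Ly6G-low cells Fth1, Actb, Ftl1 and Lgals1, galectin-1. Lgals1 was called higher (log2 fold change 0.83, edgeR adjusted p = 0.0419), a call lost with the mouse block (0.84) and without Ly6G-low replicate 1 (0.74) or 2 (0.92). FPKM is scaled by the library total and not by TMM, so its ratios lie above the fold changes of the model.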

How the data were processed

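RNA of cells sorted from CT26 tumours was extracted with the Qiagen RNeasy Micro kit and made into libraries by standard Illumina protocols, per the labels' protocols. The authors deposited a table per sample with raw read counts per gene and FPKM values, which are counts per kilobase of gene, scaled by the counted reads of the library. Per the submitters' processing notes, HTSeq 0.6.1, STAR 2.5, TopHat and the mm10 build were used, with no role or order given; whether counting used strand is not given in the sources used here. The gene lists and comparisons were chosen with earlier results of these data known.

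The counts of the 4 libraries were fitted with edgeR 4.0.16 in R 4.3.3: filterByExpr, TMM factors (1.233 and 1.224 for Ly6G-low, 0.7515 and 0.8815 for Ly6G-high), glmQLFit with a robust prior and glmQLFTest, with Benjamini-Hochberg adjustment over 13576 genes. CPM use TMM-scaled library sizes. The default fits of edgeR and DESeq2, with and without the mouse block, and of limma-voom were run on simulated counts. Those counts held planted rises and falls in equal number. The other scalings and filters, the 2-fold threshold, the fits of all libraries and those without a library were not simulated. Nor was a lopsided shift such as the falls seen here. The 64 lists held 1211 members, and a list is described by its counts and median with no test. Named genes were 5 gate genes, the 12 highest and the 12 lowest in fold change (called, 10 CPM or more, gates not overlapping), the 3 most abundant called members of each list in its direction and 2 in the other, and exceptions to counts; Arhgap9, Il34, Zbtb46 and the genes marked so in the text were named after their values were seen. Some genes that this rule names are not reported here. Of 35275 gene IDs 34490 matched GENCODE M21, used for coordinates.

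The labels give the mouse of each library, so the replicate numbers pair gates within animals. Across tested genes the mouse difference in Ly6G-low cells and that in Ly6G-high cells had a correlation of -0.004. The fit with the mouse as a block, all 6 libraries, RLE, upper-quartile and total-count scaling, DESeq2 1.42.0, limma 3.58.1 (voom), other filters, a 2-fold threshold and leaving out each library were the alternatives. FPKM served only for abundance ranks. The 2 libraries of T1-non-binding cells entered only the alternative fits.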

Additional observations from a re-analysis of the deposited data

How the results depend on the processing

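The counts of calls, 2955 higher and 3721 lower, depended most on scaling and on the size of change asked for. Library totals in place of TMM called 6408 higher and 2383 lower, keeping 2955 of the first and 2382 of the second group, since they move all genes up alike. A test against a 2-fold change called 224 higher and 1697 lower. DESeq2 with the mouse block called 1854 higher. Leaving out a library gave 1824 to 3323 genes higher and 2970 to 3843 lower, lowest on the higher side without Ly6G-low replicate 1 (1824). The mouse block, which follows the pairing by animal, called 2603 higher and 3588 lower, 2500 and 3478 of them called in the same direction without it. The remaining alternatives gave 2604 to 4107 higher and 3246 to 3831 lower.

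The median of a list turned sign, by more than its spread between mice, in 5 of 64 lists. For the p53 targets it was 0.47 with totals and 0.074 with upper-quartile factors, and for the NRF2 and ATF4 lists 0.30 each with totals. Epithelial genes had 0.45, and endothelial genes -1.16, with at least 50 counts in 2 libraries. Leaving out a library gave -1.37 to 0.66 for the epithelial and -0.32 to 0.72 for the endothelial list. Of the named genes called in either fit, Pacsin2 turned sign with totals (0.0010). Genes not called in both were counted as unchanged. The cause of these shifts was not tested, apart from the scaling, which under totals puts the median of all tested genes at 0.62.

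The 2 libraries of a gate differed by more than counting error, with a chi-square per degree of freedom of 22.9 in the Ly6G-low and 81.9 in the Ly6G-high gate.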

Other observations

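A few transcripts separated the 2 Ly6G-low libraries from each other, chosen after their values were seen. Mast cell proteases were present in mouse 1 and nearly absent in mouse 2 of that gate. Cpa3 was at 8.36 and 0.0655 CPM in the Ly6G-low gate, against 15.4 and 11.2 CPM in the Ly6G-high gate, Tpsb2 at 13.1 and 0.0983 CPM in the Ly6G-low gate, against 21 and 19.3 CPM in the Ly6G-high gate, Cma1 at 6.53 and 0.164 CPM in the Ly6G-low gate, against 8.04 and 9.62 CPM in the Ly6G-high gate and Mcpt4 at 4.4 and 0 CPM in the Ly6G-low gate, against 8.23 and 7.32 CPM in the Ly6G-high gate. None was called between gates. Without Ly6G-low replicate 1 the mast cell, basophil and eosinophil list had 7 members called lower in place of 2. B cell genes ran the other way, with more in mouse 2 of the Ly6G-low gate. Ms4a1 was at 1.38 and 8.74 CPM in the Ly6G-low gate, against 2.68 and 2.91 CPM in the Ly6G-high gate, Cd79a at 1.34 and 6.62 CPM in the Ly6G-low gate, against 3.02 and 1.5 CPM in the Ly6G-high gate and Ighm at 7.19 and 57.2 CPM in the Ly6G-low gate, against 49.1 and 118 CPM in the Ly6G-high gate. None of these was called either, but Ms4a1 (log2 fold change 1.65) and Cd79a (1.55) were called higher without Ly6G-low replicate 1, and Ighm was called lower with the mouse block (-1.88) and without Ly6G-low replicate 2 (-3.53).

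Lars2, the mitochondrial leucyl-tRNA synthetase, was the gene with the 13th highest FPKM mean in Ly6G-high cells. It was at 196 and 229 FPKM in Ly6G-low cells, against 2616 and 4667 FPKM in Ly6G-high cells (log2 fold change -4.67, edgeR adjusted p = 0.00118), also chosen after its value was seen. Whether all reads counted at Lars2 come from its own transcript was not tested, so its level and fold change may not be those of the synthetase. Some rare transcripts were nearly confined to the Ly6G-low libraries, also named after their values were seen. Tmem45a was at 1.27 and 0.491 CPM in the Ly6G-low gate, against 0 and 0 CPM in the Ly6G-high gate, and the adaptor Grb10 at 1.31 and 0.753 CPM in the Ly6G-low gate, against 0.0479 and 0 CPM in the Ly6G-high gate; both were called higher. With 1 read or none in the Ly6G-high libraries, no fold is given. Both genes passed the abundance filter only through the Ly6G-low libraries and were picked for being near 0 in the Ly6G-high libraries. Their calls are therefore no separate support.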
